A study of Mus musculus with 19 samples.

Results

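The machinery that loads peptides onto major histocompatibility complex (MHC) class I molecules was followed through 10 genes of the cortical astrocyte translatome: H2-K1, H2-D1, H2-T23, B2m, Tap1, Tap2, Tapbp, Psmb8, Psmb9 and Nlrc5. They were picked by name from the 21749 genes of the expression table, and all 10 were found. Ribosome-bound messenger RNA was measured by RNA sequencing in 19 libraries from mice of a mixed B6;FVB background that carry the transgene Tg(Aldh1l1-EGFP/Rpl10a)JD130Htz. All groups carried it, a green fluorescent ribosomal protein L10a under control of the astrocyte gene Aldh1l1, so that tagged ribosomes could be pulled down from brain (translating ribosome affinity purification, TRAP). The groups were males (4 libraries), females in metestrus (8), females in proestrus (3) and females in estrus (4), with the females taken at 09:00. No label states the hour for males, the age of the animals or whether each animal gave 1 library, so p-values measure the spread between libraries, which may be technical. The labels name 3 batches. All 4 male libraries and 5 of the metestrus ones are in batch 4. The other 3 metestrus libraries are split over batch 2 (with 2) and batch 3 (with 1), as are those of proestrus (2 and 1) and estrus (3 and 1). Sequencing depth is unknown, because the deposited table holds log2 values.

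Class I molecules display peptides from inside the cell to CD8+ T cells. Proteasomes in which the inducible subunits Psmb8 and Psmb9 replace standard ones cut proteins into peptides, the Tap1-Tap2 transporter carries these into the endoplasmic reticulum, and tapasin (Tapbp) bridges the transporter to an empty heavy chain paired with beta-2-microglobulin (B2m). Nlrc5 is a transactivator of class I genes, and interferon raises most of the pathway. In the healthy brain class I levels are known to be low in neurons and higher in vascular cells and microglia.

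Of the 10 genes, 8 lie on chromosome 17 in the RefSeq annotation of GRCm38.p6, B2m lies on chromosome 2 and Nlrc5 on chromosome 8. Psmb9, Tap1, Psmb8 and Tap2 are direct neighbours in that order, and the starts of Tap1 and Psmb9 are 225 bases apart on opposite strands. Promoter sequences were matched by symbol to RefSeq for 8 members, and the expression values themselves were made on GRCm39 with no conversion of positions. The 250 bases before the start of both classical heavy chains, of B2m and of Tap1 are shown, since promoters of class I heavy chains and B2m are known to share such elements. Capitals mark 4 motifs searched on both strands: AANNGAAA (interferon regulatory factors), GGGNNTTNC (the start of a kappa-B element), TGACG (cyclic AMP response element) and CCAAT. The first bases of the Tap1 window lie past the start of Psmb9 on the other strand.
H2-K1 (GRCm38.p6, chr17:34000348-34000597, minus strand): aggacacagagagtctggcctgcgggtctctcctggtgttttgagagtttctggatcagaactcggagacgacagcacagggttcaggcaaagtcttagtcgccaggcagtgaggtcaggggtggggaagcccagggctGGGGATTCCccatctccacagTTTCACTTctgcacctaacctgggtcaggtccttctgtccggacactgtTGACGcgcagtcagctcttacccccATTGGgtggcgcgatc
H2-D1 (GRCm38.p6, chr17:35262844-35263093, plus strand): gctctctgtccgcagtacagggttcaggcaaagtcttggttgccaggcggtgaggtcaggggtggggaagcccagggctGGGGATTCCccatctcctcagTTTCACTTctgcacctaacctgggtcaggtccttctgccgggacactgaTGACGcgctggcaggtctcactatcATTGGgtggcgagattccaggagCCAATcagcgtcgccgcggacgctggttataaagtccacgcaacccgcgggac
B2m (GRCm38.p6, chr2:122147437-122147686, plus strand): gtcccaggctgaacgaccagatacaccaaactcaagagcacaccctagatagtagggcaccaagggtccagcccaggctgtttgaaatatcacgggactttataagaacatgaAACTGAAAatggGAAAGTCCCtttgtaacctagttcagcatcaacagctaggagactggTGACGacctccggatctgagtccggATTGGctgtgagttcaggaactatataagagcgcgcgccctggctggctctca
Tap1 (GRCm38.p6, chr17:34187306-34187555, plus strand): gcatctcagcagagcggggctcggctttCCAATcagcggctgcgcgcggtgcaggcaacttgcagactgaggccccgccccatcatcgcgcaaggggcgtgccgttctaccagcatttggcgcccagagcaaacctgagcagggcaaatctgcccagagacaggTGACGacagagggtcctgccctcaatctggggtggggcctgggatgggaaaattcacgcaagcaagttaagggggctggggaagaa
The H2-K1 and H2-D1 windows were identical at 161 of 177 positions of their best local alignment (91.0%). In both, and in B2m, all 4 motifs were present, while Tap1 held TGACG and CCAAT. Of the 4 matched windows not shown, Psmb9 also held TGACG and CCAAT, H2-T23 held AANNGAAA and CCAAT, Tapbp held CCAAT, and Psmb8 held 0 of the 4. Of all 32851 RefSeq windows of this length, 21.3% held AANNGAAA, 4271 (13%) held GGGNNTTNC, 17.8% held TGACG and 33.8% held CCAAT. A match is a run of letters and was not tested as a binding site.

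None of the 10 genes differed past the threshold in any of 4 comparisons: proestrus over metestrus, estrus over metestrus, estrus over proestrus, and males over metestrus. The test was limma's moderated test with batch in the model, two-sided, with p-values adjusted by the Benjamini-Hochberg method over the 20644 genes tested and a threshold of 0.05. Genes entered it with a log2 value of at least 3.32, which is 10 before the log, in at least 3 libraries. Of the members, 9 reached that value in all 19 libraries, and Nlrc5 reached it in 3. Fold changes below are on the log2 scale with their standard error (SE), and levels are log2 values. Levels are compared between groups for 1 gene at a time, since the table carries no scale per length.

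**Figure D1:**
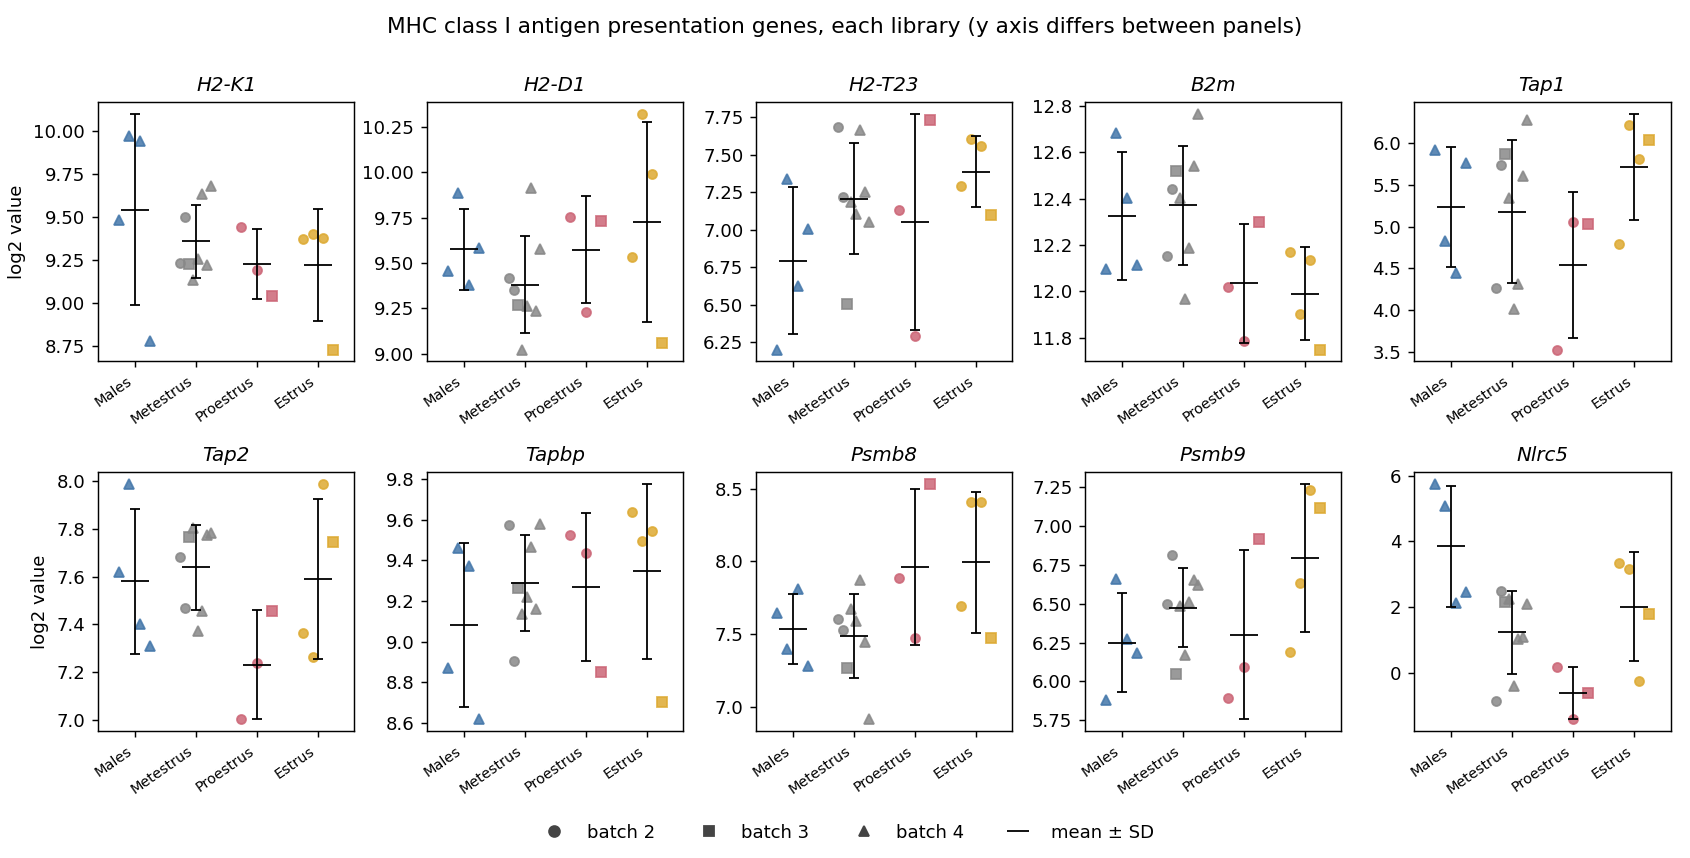
Deposited log2 values of the 10 genes in each library (points), by group along the x axis and with batch as the marker shape; black bars are the group mean ± SD, and the y axis differs between panels. In all 10 panels the groups of each comparison overlap, and Nlrc5 covers the widest range, -1.42 to 5.77.

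The classical heavy chain H2-K1, which presents peptides to CD8+ T cells, had values of 9.48, 9.97, 9.94 and 8.78 in males, against a lowest, median and highest of 9.13, 9.24 and 9.68 in metestrus. In proestrus they were 9.45, 9.19 and 9.04, and in estrus 9.37, 9.40, 9.38 and 8.73. The male libraries held both a value above and a value below every metestrus library, and the estrus library of batch 3 lay below the other 3 of its group. No fold change exceeded 0.16 in size, the one of males over metestrus (SE 0.21, adjusted p = 0.996). The 95% intervals ran from -0.63 to 0.44 for proestrus over metestrus and from -0.63 to 0.37 for estrus over metestrus, so that a 2-fold change in either direction lies outside them.

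H2-D1, the other classical heavy chain, had 9.46, 9.88, 9.38 and 9.58 in males and a lowest, median and highest of 9.02, 9.31 and 9.91 in metestrus. Its values were 9.75, 9.23 and 9.73 in proestrus and 9.53, 10.32, 9.99 and 9.06 in estrus. Estrus thus held the highest value of the series as well as one close to the bottom. Estrus over metestrus gave 0.36 (SE 0.25, adjusted p = 0.607) and estrus over proestrus 0.13 (SE 0.25, adjusted p = 0.864). Heavy chain genes resemble each other closely and no source used here says how reads were shared among them, so the split between H2-K1, H2-D1 and their relatives is uncertain. The mice are of mixed C57BL/6 and FVB background, strains known to carry different H2 haplotypes. The haplotype of each animal is not stated, and its part in these values was not tested.

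The non-classical heavy chain H2-T23 (Qa-1), which presents leader peptides of other class I molecules to receptors on natural killer cells, ranged from 6.20 to 7.73 over all libraries. It averaged 6.79 ± 0.49 in males, 7.21 ± 0.37 in metestrus, 7.05 ± 0.72 in proestrus and 7.39 ± 0.24 in estrus (SD, n = 4, 8, 3 and 4). Males over metestrus gave -0.46 (SE 0.32, 95% interval -1.12 to 0.20, adjusted p = 0.983), and the ranges overlapped.

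B2m, the light chain shared by all these heavy chains, had values of 12.10, 12.68, 12.40 and 12.11 in males, against a lowest, median and highest of 11.97, 12.42 and 12.77 in metestrus. It stood at 12.02, 11.79 and 12.30 in proestrus and at 12.17, 11.90, 12.14 and 11.75 in estrus. All 4 estrus libraries and all 3 proestrus libraries lay below the metestrus median, as did 3 of the 4 male libraries, and the ranges overlapped. The fold change was -0.34 (SE 0.21, adjusted p = 0.524) for proestrus over metestrus and -0.37 (SE 0.20, 95% interval -0.78 to 0.03, adjusted p = 0.473) for estrus over metestrus. Both comparisons share their metestrus libraries of batches 2 and 3, which had a lowest, median and highest of 12.15, 12.44 and 12.52. For males over metestrus it was -0.05 (SE 0.17, 95% interval -0.40 to 0.31).

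Tap1, a subunit of the peptide transporter, varied between libraries of the same group. Males had 5.92, 4.82, 4.44 and 5.77, against a lowest, median and highest of 4.01, 5.48 and 6.28 in metestrus. Estrus libraries had 4.79, 6.21, 5.82 and 6.04, against 3.52, 5.06 and 5.03 in proestrus. In estrus 3 of 4 libraries lay above every proestrus library and the remaining one fell among them. Estrus over proestrus gave 1.23 (SE 0.61, 95% interval -0.04 to 2.50), with an unadjusted p of 0.0565 and an adjusted p of 0.362 in limma. Its partner Tap2 spanned 7.003 to 7.99 over all libraries. Tap2 averaged 7.58 ± 0.30 in males, 7.64 ± 0.18 in metestrus, 7.23 ± 0.23 in proestrus and 7.59 ± 0.34 in estrus (SD, n = 4, 8, 3 and 4). Proestrus over metestrus gave -0.41 for Tap2 (SE 0.27, adjusted p = 0.559), with 2 of 3 proestrus libraries below every metestrus library.

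Tapasin (Tapbp), the chaperone that holds the heavy chain at the transporter, averaged 9.08 ± 0.40 in males, 9.29 ± 0.24 in metestrus, 9.27 ± 0.37 in proestrus and 9.35 ± 0.43 in estrus (SD, n = 4, 8, 3 and 4). Its fold changes ran from -0.23 (males over metestrus, SE 0.20) to 0.06 (estrus over metestrus, SE 0.23). All 4 of its 95% intervals lay within 2-fold.

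Psmb8, the immunoproteasome subunit that replaces Psmb5, had 7.65, 7.40, 7.81 and 7.28 in males and a lowest, median and highest of 6.91, 7.56 and 7.87 in metestrus. Proestrus libraries had 7.88, 7.47 and 8.53, and estrus libraries had 7.69, 8.41, 8.41 and 7.47. In proestrus 2 of 3 libraries, and in estrus 2 of 4, lay above every metestrus library. Proestrus over metestrus gave 0.50 (SE 0.33, adjusted p = 0.557), and 0.041 without the proestrus library at 8.53. It was 0.52 for estrus over metestrus (SE 0.31, 95% interval -0.12 to 1.17, adjusted p = 0.537). Psmb9, which replaces Psmb6, ranged from 5.88 to 7.23 and averaged 6.25 ± 0.32 in males, 6.48 ± 0.25 in metestrus, 6.30 ± 0.54 in proestrus and 6.79 ± 0.48 in estrus (SD, n = 4, 8, 3 and 4). Estrus over proestrus gave 0.52 for Psmb9 (SE 0.35, adjusted p = 0.527). No source used here says whether reads were assigned by strand. Psmb9 and Tap1 are transcribed away from each other from starts 225 bases apart, so from these starts their transcripts do not overlap.

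Nlrc5, the class I transactivator, was the member near the bottom of the scale. Males had values of 5.77, 5.08, 2.11 and 2.46, against a lowest, median and highest of -0.87, 1.59 and 2.49 in metestrus. Proestrus libraries had 0.16, -1.42 and -0.62, and estrus libraries had 3.35, 3.17, -0.25 and 1.79. Only 2 male libraries and 1 estrus library reached the minimum of 3.32, so the gene was tested through the groups where it was high. Males over metestrus gave 2.64 (SE 1.01, 95% interval 0.54 to 4.74), with an unadjusted p of 0.0163 and an adjusted p of 0.856 in limma. Estrus over proestrus gave 2.67 (SE 1.16, 95% interval 0.27 to 5.07), with an unadjusted p of 0.0311 and an adjusted p of 0.280. With values under the minimum raised to it, these fold changes became 1.05 and 0.0059, and values this low carry an unknown counting error.

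The order of the 4 group means differed from gene to gene. Estrus had the highest mean in 6 of the 10 genes and the lowest in 2 (H2-K1 and B2m). Males had the highest mean in 2 genes (H2-K1 and Nlrc5) and the lowest in 3 (H2-T23, Tapbp and Psmb9). Metestrus had the highest mean in 2 genes and the lowest in 2, and proestrus the highest in 0 and the lowest in 3. In all 30 pairs of neighbours in these orders the ranges overlapped. The shares over all tested genes were not computed for these counts. Groups farther apart in an order need not overlap, as Nlrc5 in males (lowest 2.11) and proestrus (highest 0.16) did not. The means are not adjusted for batch, and no batch holds males with proestrus or estrus, so the orders are a description.

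**Figure D2:**
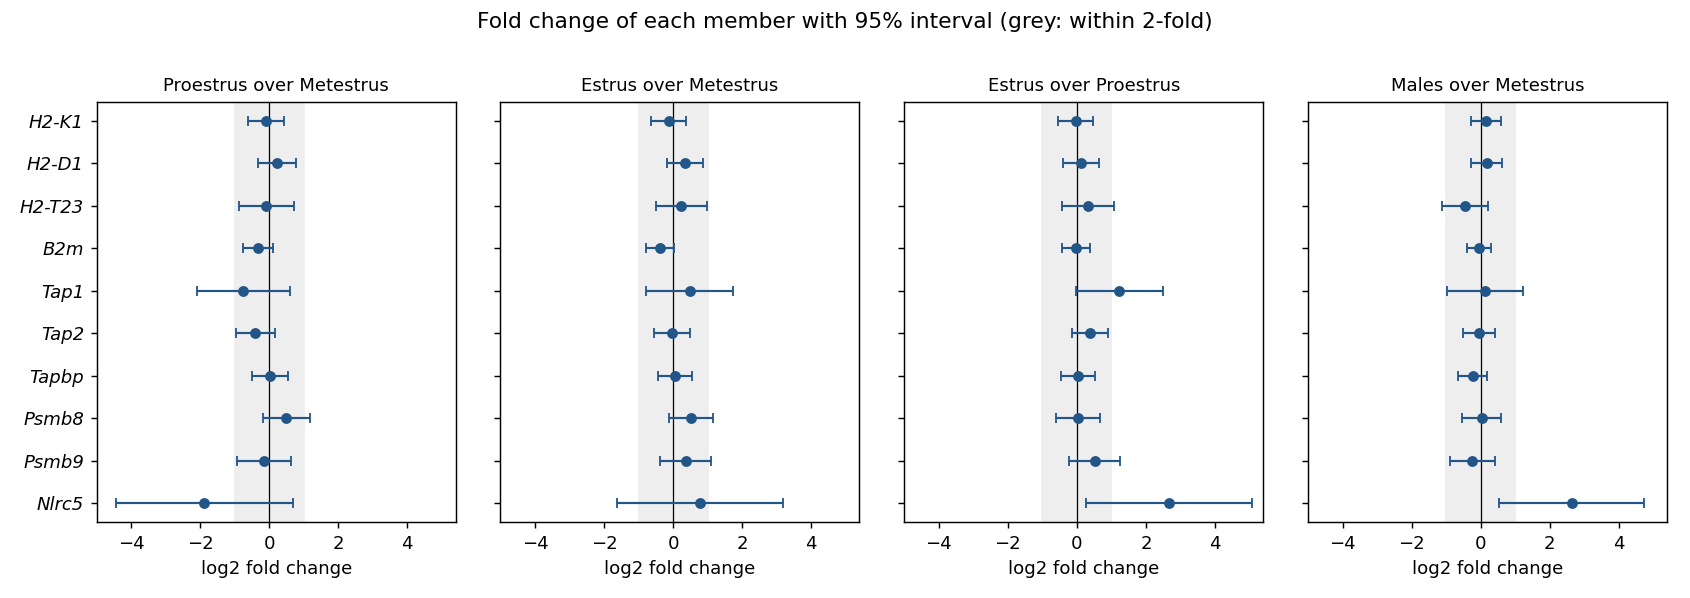
Log2 fold change of each gene (x axis) with its 95% interval from limma in the 4 comparisons; the grey band spans changes within 2-fold. Intervals of the heavy chains, B2m, Tap2, Tapbp and the immunoproteasome subunits are narrow beside those of Tap1 and Nlrc5, and Nlrc5 has the 2 intervals that leave out 0. Nlrc5 entered the test only through 2 male libraries and 1 estrus library.

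Counted by comparison, 0 of 10 genes passed for proestrus over metestrus, where 0.988% of tested genes did, and 0 had an unadjusted p under 0.05 in limma, against 13.1% of tested genes. For estrus over metestrus, 0 of 10 passed, against 0.0872%, and 0 had an unadjusted p under 0.05, against 11.3%. For estrus over proestrus, 0 of 10 passed, against 0.940%, and 1 (Nlrc5) had an unadjusted p under 0.05, against 14.5%. For males over metestrus, 0 of 10 passed, against 0.0242%, and 1 (again Nlrc5) had an unadjusted p under 0.05, against 5.33%. Nlrc5 entered the test only through 2 male libraries and 1 estrus library, in the groups where it was high. Its place in these counts is therefore no support for a change. With background shares this low a count of 0 among 10 genes is near what all genes gave.

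Groups whose ranges did not overlap were found for 0 of 10 members in each comparison. Among all tested genes that share was 8.73% for proestrus over metestrus, 3.33% for estrus over metestrus, 9.06% for estrus over proestrus and 1.44% for males over metestrus. The median fold change of the members was -0.12 in proestrus over metestrus, 0.30 in estrus over metestrus, 0.23 in estrus over proestrus and -0.01 in males over metestrus. Over all tested genes these medians were -0.09, -0.07, 0.02 and 0.04 in the same order. Positive fold changes were seen for 3, 7, 8 and 5 of the 10 members in that order of comparisons, of which the 3 between stages share libraries. Among the 20644 tested genes they were seen for 8640, 8975, 10732 and 11420. Whether the members differ from all genes in this was not tested.

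Under the model used, the 95% intervals of most members lay within 2-fold. They measure the spread between libraries, and the deposited values lack 4 directions of variation, so the intervals may be too narrow. A 2-fold change in either direction lay outside the 95% interval for 7 genes in proestrus over metestrus, 6 in estrus over metestrus, 6 in estrus over proestrus and 7 in males over metestrus. When the directions of variation that the deposited values lack were counted in the model, these numbers became 5, 5, 6 and 7. Within groups, the pooled SD of the members ran from 0.25 (B2m and Tap2) to 0.79 (Tap1) and 1.44 (Nlrc5), beside a median of 0.44 over all tested genes.

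Around these 10 genes, the rest of the pathway was read from 8 lists of antigen presentation and interferon genes. Of the other class I heavy chains, 11 of 22 listed were tested and 0 passed in any comparison. H2-M3, which presents formylated peptides, gave 3.75 in proestrus over metestrus (SE 0.96, adjusted p = 0.0641). H2-M3 had values of 5.13, 5.82 and 6.45 in proestrus, against -0.80, 4.04 and 2.90 in the metestrus libraries of the same batches. H2-M3 also gave 2.87 in estrus over metestrus (SE 0.90, adjusted p = 0.226) and 2.52 in males over metestrus (SE 0.79, adjusted p = 0.796). The comparisons of proestrus and of estrus share 3 metestrus libraries, and that of males rests on the other 5. In those 5, H2-M3 ran from 0.76 to 3.20. Among metestrus libraries only the one at 4.04 reached the minimum for testing, while every library of the other groups did. H2-M3 was therefore tested through the groups where it was high. Its fold changes over metestrus rest largely on values under the minimum, which carry an unknown counting error. H2-Q2 gave 3.15 in estrus over proestrus (SE 1.13, adjusted p = 0.181), with a proestrus mean of 0.76, under the minimum.

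Of 5 genes of peptide loading and trimming outside the members, 0 passed. Pdia3, the disulphide isomerase of the loading complex, had the largest fold change between stages that involved proestrus, -0.37 over metestrus and 0.44 in estrus over proestrus. Erap1, which trims peptides in the endoplasmic reticulum, gave -0.39 in estrus over metestrus and 0.43 in males over metestrus. Among 6 further immunoproteasome genes and regulators and 3 standard catalytic subunits, 0 passed, and the largest fold change in either list was 0.31 in size, that of Psmb7 in estrus over proestrus.

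Upstream of the members, 0 of 14 transcription factors of class I genes passed. Rfx5, a subunit of the factor that binds the X box of MHC promoters, gave -1.49 in proestrus over metestrus (SE 0.50, adjusted p = 0.185), -0.53 in estrus over metestrus and 0.96 in estrus over proestrus. Irf2, which binds interferon response elements, came closest to the threshold, with -0.99 in proestrus over metestrus (SE 0.27, adjusted p = 0.0792) and 0.94 in estrus over proestrus (SE 0.25, adjusted p = 0.0664). It also had the largest fold change of males over metestrus in the list, 0.41 (SE 0.22). Of 9 interferon receptors, kinases and inhibitors 0 passed. Socs3, a feedback inhibitor of cytokine signalling, came closest, with -2.19 in proestrus over metestrus (SE 0.55, adjusted p = 0.0599) and 1.72 in estrus over proestrus (SE 0.52, adjusted p = 0.104). Socs3 had values of 3.09, 1.51 and 3.64 in proestrus, of which only the last reached the minimum for testing. Both fold changes thus rest in part on values under the minimum.

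One of 15 tested interferon-stimulated genes passed, Usp18, which removes the ubiquitin-like protein Isg15 and dampens type I interferon signalling. Usp18 had values of 1.26, 0.01 and 0.31 in proestrus, against a lowest, median and highest of 5.08, 5.56 and 6.84 in metestrus. Estrus libraries had 5.20, 6.11, 6.23 and 4.98. All proestrus libraries lay below every other library, in the range of values where little was detected. Usp18 fell in proestrus against metestrus (log2 fold change -5.18, SE 0.68, limma adjusted p = 0.000681) and rose in estrus against proestrus (log2 fold change 5.10, SE 0.64, limma adjusted p = 0.000262). Fitted within batches 2 and 3 alone, the adjusted p became 0.0790 and 0.0735. With low values raised to the minimum the fold change over metestrus was -2.39 with an adjusted p of 0.0712, and that of estrus over proestrus was 2.32 with an adjusted p of 0.0490. In males, values were 5.01, 5.95, 4.71 and 3.47. Irf7 gave -3.20 in estrus over metestrus (SE 0.87, adjusted p = 0.158) and Rsad2 0.996 in males over metestrus (SE 0.64, adjusted p = 0.974), and neither passed.

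Class II genes, which present peptides to CD4+ T cells, gave 1 call among 6 tested of 9 listed. H2-Eb1, a class II beta chain, had 6.13, 6.97, 6.55 and 5.58 in estrus, against 4.18, 4.11 and 2.82 in proestrus. The ranges did not overlap, and the gene rose by 2.54 (SE 0.52, adjusted p = 0.0219). With the missing directions counted in the model the adjusted p was 0.0736, and within batches 2 and 3 it was 0.191. Its adjusted p was 0.0550 to 0.0624 without proestrus library 1, 2 or 3 or estrus library 2, each left out in turn. In metestrus the lowest, median and highest values were 4.38, 5.43 and 6.27, and proestrus over metestrus gave -1.60 (SE 0.55, adjusted p = 0.198). H2-Ab1 gave -1.18 in estrus over metestrus (SE 0.85, adjusted p = 0.620) and H2-Aa 1.29 in males over metestrus (SE 0.72, adjusted p = 0.974).

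**Figure D3:**
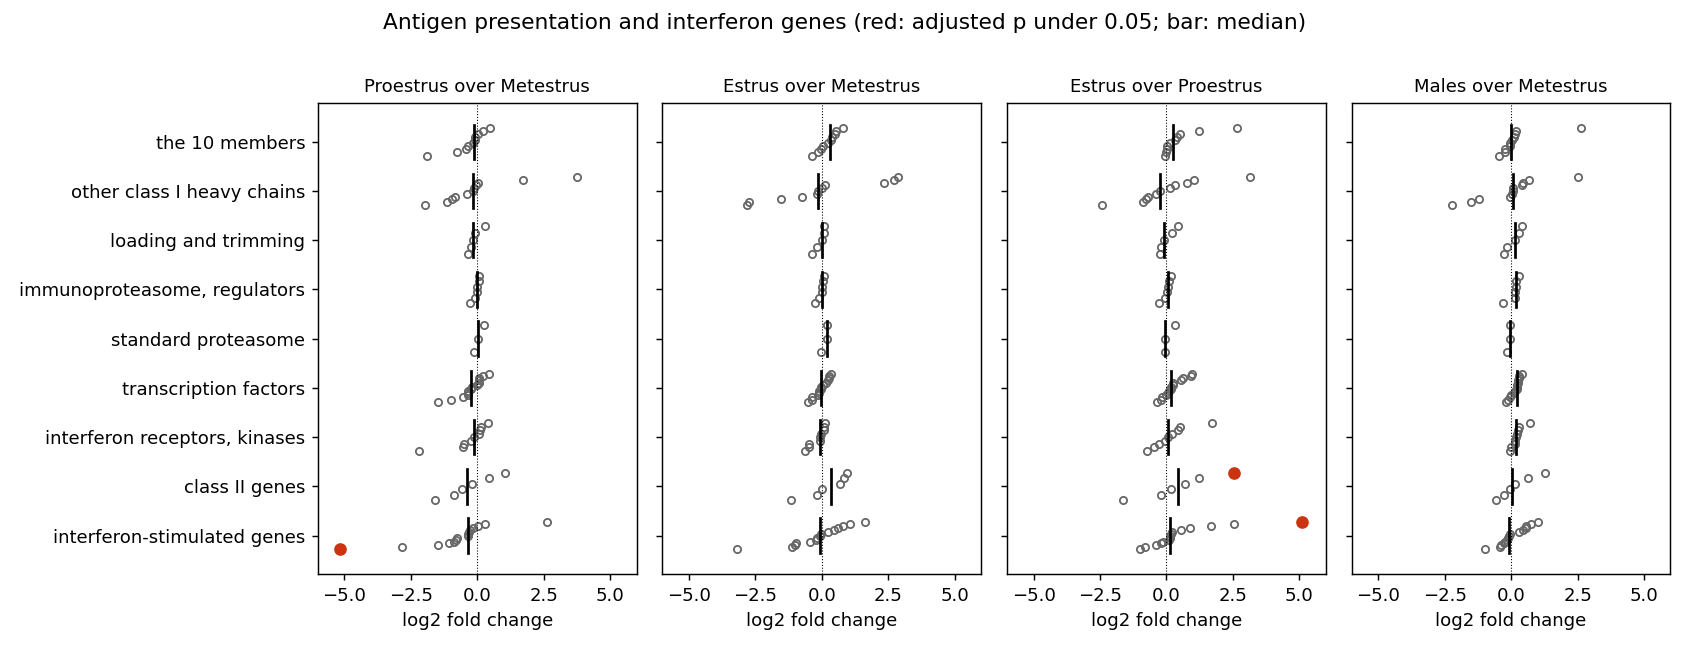
Log2 fold change (x axis) of each tested gene of the 10 members and of 8 related gene lists (rows) in the 4 comparisons; red points passed an adjusted p of 0.05 and black bars are list medians. The red points are Usp18, at -5.18 and 5.10, and H2-Eb1, at 2.54.

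Class I and class II genes are also expressed by cells other than astrocytes, so marker genes of those cells are given beside these values. Astrocyte markers were high throughout, with Slc1a2 at 15.30 to 16.02 and Aldh1l1 at 11.42 to 12.70. The mean of 12 astrocyte markers was 14.37 ± 0.09 in males and 14.15 ± 0.21 in metestrus. It was 14.02 ± 0.02 in proestrus and 14.01 ± 0.29 in estrus (SD). Positive fold changes were seen for 10 of the 12 in males over metestrus and 2 in proestrus over metestrus. They were seen for 4 in estrus over metestrus and 6 in estrus over proestrus, with 0 passing in any comparison. Neuronal RNA was present as well, with Snap25 at 15.31 to 16.59. The mean of 6 neuronal markers was 12.55 ± 0.06 in males, 12.46 ± 0.12 in metestrus, 12.51 ± 0.10 in proestrus and 12.58 ± 0.19 in estrus (SD). Of these 6 genes 0 passed in any comparison. The mean of 12 microglial markers was 7.60 ± 0.28 in males, 7.67 ± 0.27 in metestrus, 7.80 ± 0.28 in proestrus and 7.62 ± 0.25 in estrus (SD), and 0 of the 12 passed in any comparison. The mean of 10 endothelial markers was 6.56 ± 0.74 in males, 5.82 ± 0.44 in metestrus, 5.82 ± 0.40 in proestrus and 4.94 ± 0.46 in estrus (SD). The mean of 6 oligodendrocyte markers was 11.03 ± 0.31 in males, 11.002 ± 0.085 in metestrus, 11.16 ± 0.18 in proestrus and 11.43 ± 0.20 in estrus (SD). All 4 estrus libraries lay above every metestrus library in that mean, and 6 of 6 genes had positive fold changes in estrus over metestrus, with 0 passing. The mean of 8 mural and fibroblast markers was 7.03 ± 0.49 in males, 6.74 ± 0.31 in metestrus, 6.80 ± 0.13 in proestrus and 6.46 ± 0.11 in estrus (SD). All 4 estrus libraries lay below every proestrus library in that mean, and 6 of 8 genes had negative fold changes in estrus over proestrus, with 0 passing. In males over metestrus 9 of the 10 endothelial genes had positive fold changes and in estrus over proestrus 9 of 10 had negative ones, with 0 passing in either. Of the 20644 genes tested, 8640 had positive fold changes in proestrus over metestrus, 8975 in estrus over metestrus and 11420 in males over metestrus. In estrus over proestrus 10732 were positive and 9912 negative. For means of lists no share over all genes was computed. Ptprc, the pan-leukocyte gene, ranged from -1.32 to 5.30 over all libraries, and Cd3e, of T cells, from -1.79 to 6.33. Of 8 infiltrating immune markers listed, 4 had values, and their mean was 4.36 ± 1.25 in estrus and 2.63 ± 0.70 in proestrus. It was 2.80 ± 0.98 in metestrus and 1.93 ± 0.80 in males (SD). Outside estrus these group means lay below the minimum of 3.32. Of these markers 3 were tested, and 0 passed in any comparison. The part of these lists in the differences given above, that of H2-Eb1 included, was not tested. In such bulk samples fewer cells of a type and less RNA per cell cannot be told apart.

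Across the 19 libraries the members did not form a single block. Of their 45 pairs, 28 correlated positively, the median Pearson's r was 0.12, and 0 passed 0.05 in a permutation test of r or of Spearman's rho adjusted over the 45 pairs. The strongest pair was H2-T23 and Psmb9, with r = 0.63 and rho = 0.62 (permutation p = 0.004 and 0.006, adjusted 0.167 and 0.186). Without the 2 libraries farthest from the H2-T23 median r was 0.50, and it was 0.54 in the 7 libraries of batch 2 and 0.77 in the 9 of batch 4. H2-K1 and Tapbp came next with r = 0.59 (rho = 0.50, permutation p = 0.007 and 0.030, adjusted 0.167 and 0.226). That relation was 0.49 without the outermost 2 libraries, -0.47 within batch 2 and 0.78 within batch 4, so it did not hold within both batches. The values within a batch were not centred by group. After group means were subtracted over the 19 libraries, r was 0.78 for H2-K1 and Tapbp and 0.54 for H2-T23 and Psmb9.

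**Figure D4:**
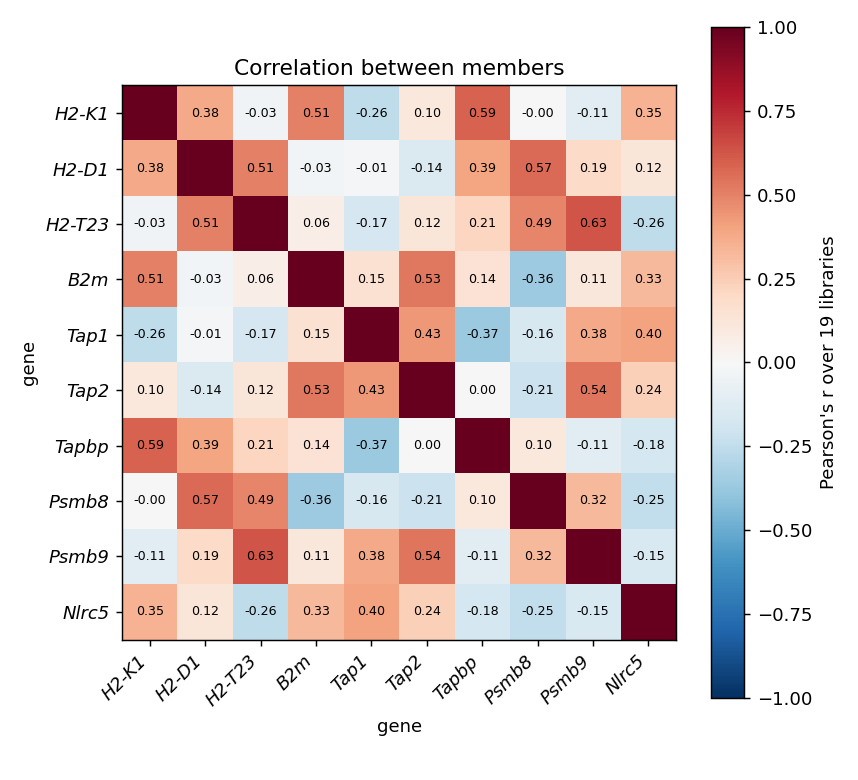
Pearson's r between each pair of the 10 genes over 19 libraries, on a colour scale from -1 to 1, with the same genes along both axes. The strongest pairs are H2-T23 with Psmb9 at 0.63 and H2-K1 with Tapbp at 0.59, and the lowest is Tap1 with Tapbp at -0.37.

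Pairs that work together in the pathway ranged from negative to moderate values. B2m had r = 0.51 with H2-K1, 0.06 with H2-T23 and -0.03 with H2-D1. Tapbp had r = -0.37 with Tap1 and 0.00086 with Tap2. Tap1 and Tap2 0.43, Psmb8 and Psmb9 0.32, and H2-K1 and H2-D1 0.38. Tap1 and Psmb9, the neighbours transcribed away from each other, had r = 0.38. Over the 19 libraries, the genes outside the set most like the mean of the 10 standardised members were Dhrs7 (r = 0.88), Bsg (0.83), Fbln5 (0.82), Plscr2 (0.81) and Gpaa1 (0.80). After group means were subtracted they were 1700071M16Rik (0.92), Tspo (0.90), Bcap31 (0.89), Bsg (0.89) and Dhrs7 (0.86). These were selected as the highest of all tested genes, and the libraries share their scaling, so the values serve as a description.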

How the data were processed

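The deposited table holds log2 values for 21749 genes in 19 libraries, from -5.12 to 19.0. Per the submitters' processing notes, the authors used the genome build GRCm39 with STAR, Salmon and edgeR. No source used here gives versions, scaling, pseudocount or filters. Depth cannot be read from these values, so no counting interval is given. Centred by gene, the columns span 14 of 18 possible dimensions, so 4 directions of variation are missing from the deposited values. The model counts 13 residual degrees of freedom where the rank allows 11, which makes its p-values too small. An alternative that counts the missing directions was fitted. With it, the genes past the threshold went from 204 to 75 for proestrus over metestrus and from 18 to 0 for estrus over metestrus. They went from 194 to 52 for estrus over proestrus and stayed at 5 for males over metestrus.

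Genes with a log2 value of at least 3.32 in at least 3 libraries were tested (20644, 94.9%). limma 3.58.1 in R 4.3.3 (trend, robust prior) fitted group and batch to all 19 libraries. Fold changes between stages therefore rest on batches 2 and 3, and those of males over metestrus on batch 4. No batch holds males together with proestrus or estrus, and those comparisons were not made. How the fit performs on values that lack 4 directions of variation, as the deposited ones do, was not tested. Pearson and Spearman correlations used permutation tests with 100000 resamples (scipy 1.17.1).

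The members and the gene lists were chosen with earlier results of these data known. All 10 members were named. From each other list, genes past the threshold were named, or else the one with the largest fold change in size in each comparison. Irf2 was named in addition in the comparisons with proestrus, as the transcription factor closest to the threshold. The alternatives were not run for it there. Of 146 other listed symbols, 20 were not tested. Genes named by likeness were the 5 with the highest Pearson's r with the mean of the standardised members, before and after group means were subtracted. Replicate numbers follow the order of deposit. Alternatives were no filter, median-centred libraries, no batch term, no trend or robust prior, low values raised to the minimum, only shared batches, missing directions counted, a block by title number, and each library left out.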

Additional observations from a re-analysis of the deposited data

Results flagged for a closer look

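In 30 checks of the members within males, metestrus and estrus, 2 values stood far from the rest of their group, and chance gives about 1 in 20. Both belong to estrus library 4, the estrus library of batch 3. H2-K1 was 8.73 there, against 9.37 for the nearest other estrus library. Tapbp was 8.71 there, against 9.49 for the nearest. Without that library, H2-K1 in estrus over metestrus was -0.0042 in place of -0.13.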

How the results depend on the processing

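No member passed the threshold under any of the alternatives run, and the lowest adjusted p over them was 0.245 for proestrus over metestrus, 0.135 for estrus over metestrus, 0.187 for estrus over proestrus and 0.414 for males over metestrus. The sign of a fold change turned in 9 of 180, 8 of 190, 14 of 140 and 13 of 200 alternatives in the same order of comparisons, for 5, 5, 6 and 4 members. Among these was Nlrc5 in estrus over metestrus, 0.79 with all libraries and -0.35 without metestrus library 1. With libraries centred on their medians, Tap2 was 0.015 in estrus over metestrus and Psmb8 -0.0056 in males over metestrus. Without batch in the model, Tapbp was -0.018 in proestrus over metestrus. With low values raised to the minimum, Ptprc was -0.17 in proestrus over metestrus, H2-Ab1 0.043 in estrus over metestrus and Kcnj8 0.33 in estrus over proestrus. The means of Nlrc5 in metestrus and proestrus became 3.32, which were 2 of 80 group means that moved.

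Leaving out 1 library at a time gave ranges across 0. In proestrus over metestrus they were -0.25 to 0.28 for Tapbp, -0.88 to 2.84 for Ptprc, -0.64 to 0.35 for H2-T23, -0.58 to 0.089 for Psmb9, -0.026 to 0.47 for H2-D1 and -0.21 to 0.019 for H2-K1. In estrus over metestrus they were -0.18 to 0.060 for Tap2, -1.66 to 0.31 for H2-Ab1, -0.35 to 1.55 for Nlrc5, -0.23 to 0.29 for Tapbp, -0.13 to 0.53 for H2-T23 and -0.026 to 0.62 for Psmb9. In estrus over proestrus they were -0.13 to 0.089 for H2-K1, -0.27 to 0.44 for Psmb8, -0.12 to 0.40 for H2-D1, -0.12 to 0.84 for H2-T23, -0.023 to 0.19 for Tapbp and -0.16 to 0.14 for B2m. In males over metestrus they were -0.11 to 0.13 for Psmb8, -0.15 to 0.42 for Tap1, -0.17 to 0.050 for B2m and -0.19 to 0.032 for Tap2.

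Counts of all genes past the threshold moved more. For proestrus over metestrus the count of 204 became 1146 without batch, 75 with missing directions counted and 1 within shared batches, and 68 (without metestrus library 1) to 190 with 1 library left out. For estrus over metestrus the count of 18 became 899 without batch, 49 without trend and robust prior, 0 with missing directions counted and 0 within shared batches, and 0 (without metestrus library 1) to 56 (without metestrus library 3). For estrus over proestrus the count of 194 became 310 with centred libraries, 3.6e2 (to 2 digits) without batch, 52 with missing directions counted and 0 within shared batches, and 66 (without proestrus library 1) to 430 (without estrus library 4). For males over metestrus the count of 5 became 10 without batch, 9 without trend and robust prior and 17 with low values raised, and 5 to 8 (without male library 2). The cause of these shifts was not tested.

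With a replicate block by the number in the sample titles, within batch 4, 4 genes passed in males over metestrus in place of 5, and 0 members. Libraries of the same number did not deviate together (r = 0.15, -0.0097, -0.20 and -0.10 over genes), and 1 of the 4 male libraries correlated best with its own number. For the stages no paired analysis was possible because their numbers follow the order of deposit.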
